A study of Mus musculus with 6 samples.

Results

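Cholesterol synthesis and handling in neonatal skin was followed through 31 genes, listed by name: enzymes from acetoacetyl-CoA to cholesterol, the sterol sensor, and genes that move, release or export cholesterol. A gene was measured where at least 1 probe set (a group of probes for a transcript) carried that gene symbol and no other. This gave 30 of the 31 genes, among 18193 genes on the arrays, and 68 of 45037 probe sets. Acat2, an acetoacetyl-CoA thiolase, had no such probe set and has no value here. Where a gene had several, the brightest on average was used.

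Whole back skin was taken from 6 female mice of 1 litter at postnatal day 2.5, on a mixed FVB/N and C57BL/6 background, with 1 array per mouse. The 3 caNrf2 mice are labelled K5cre-caNrf2 (tg/tg) and combine a Cre recombinase under the keratin 5 promoter with caNrf2, an Nrf2 that is always active; Nrf2 is the main activator of antioxidant and detoxification genes. The 3 control mice are labelled K5cre-wt (tg/wt=control). The keratin 5 promoter is active in basal keratinocytes, whereas the RNA came from the whole skin with its dermis, fat and muscle, so a difference in the epidermis alone is diluted, and fewer cells of a type and less RNA per cell cannot be told apart. Sample descriptions of both groups also carry the word weak, which the labels do not explain.

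Cells make cholesterol from acetyl-CoA through the mevalonate pathway, which yields isoprenoids, and then through squalene, lanosterol and a chain of sterols. The transcription factor SREBP2, held in the endoplasmic reticulum by SCAP and the INSIG proteins while sterols are plentiful, is released when sterols fall and switches on most of these enzymes together. Excess sterol instead activates the LXR receptors, which raise the export pumps ABCA1 and ABCG1. The epidermis makes much of its own cholesterol, since the lipid sheets of the skin barrier consist of ceramides, fatty acids and cholesterol.

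Sequences of 3 promoters are shown for the elements that these regulators are known to use. Hmgcs1 held a sterol element, and Hsd17b7 and Dhcr7 were the sterol enzymes whose groups did not overlap (values below). Of the 3 annotated Dhcr7 starts, the one shown was picked because it held a match to the antioxidant core. The other Dhcr7 starts held none of the elements marked here. The sequences are from RefSeq, build GRCm38.p6, and run 5′ to 3′ from 250 bases before the annotated start to 20 bases after it. Capitals mark the core of the sterol regulatory element (TCACNCCAC), bound by SREBP, the core of the antioxidant response element (TGACNNNGC), bound by Nrf2 with a small Maf protein, and the box of NF-Y (CCAAT), a usual partner of SREBP. Both strands were searched.
Hmgcs1, chr13:119690101-119690370, plus strand: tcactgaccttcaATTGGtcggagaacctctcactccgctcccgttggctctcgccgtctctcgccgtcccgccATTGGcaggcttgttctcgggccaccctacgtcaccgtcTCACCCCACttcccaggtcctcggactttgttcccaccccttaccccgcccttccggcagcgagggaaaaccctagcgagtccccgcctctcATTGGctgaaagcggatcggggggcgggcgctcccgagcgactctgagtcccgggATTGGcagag
Hsd17b7, chr1:169969186-169969455, minus strand: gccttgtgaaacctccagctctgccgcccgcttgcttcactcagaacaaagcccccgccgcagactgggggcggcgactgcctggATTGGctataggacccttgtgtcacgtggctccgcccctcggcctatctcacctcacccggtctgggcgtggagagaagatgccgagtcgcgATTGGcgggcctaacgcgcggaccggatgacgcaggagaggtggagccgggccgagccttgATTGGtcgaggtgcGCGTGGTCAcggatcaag
Dhcr7, chr7:143829964-143830233, plus strand, 1 of 3 annotated starts: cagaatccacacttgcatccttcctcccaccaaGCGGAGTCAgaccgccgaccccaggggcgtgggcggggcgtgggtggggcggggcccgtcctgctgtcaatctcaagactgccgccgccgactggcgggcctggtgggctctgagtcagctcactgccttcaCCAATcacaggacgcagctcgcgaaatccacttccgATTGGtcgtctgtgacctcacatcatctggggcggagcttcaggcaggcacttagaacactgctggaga

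Promoter windows of 300 bases were found for 25 of the 31 genes, 6 of them with more than 1 start. The NF-Y box was present in 21 of the 25 genes, against 41.1% of all genes with a window and 42% of those measured here. By window rather than gene it was in 22 of 35, against 37.4% of all windows. The GC box (GGGCGG), bound by Sp1, was in 22 genes, against 38.2% of all genes and 57.3% of those measured. The antioxidant core was in 4 genes, Dhcr7, Hsd17b7, Mvk and Pmvk, or 16%, a share close to the 16.2% of measured genes. The sterol core was found only in Hmgcs1, against 1.44% of all genes. In Hmgcs1 it lies at -137 to -129 from the start, in Dhcr7 the antioxidant core lies at -217 to -209 and in Hsd17b7 at 3 to 11, past the start. These are matches of letters, not tested sites, base composition was not matched between the sets, and binding was not measured.

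Array medians were 80.7 to 81.9 intensity units, and arrays correlated at 0.996 to 0.998 over all probe sets. Markers of the labelled tissue were bright, with Krt14 of basal keratinocytes at 13.55 and Krt10 of suprabasal keratinocytes at 14.28 in control skin (mean log2 intensity), against a median of 6.35 over all probe sets. Nfe2l2, which encodes Nrf2, differed by 0.41 ± 0.07 (log2, SE) and missed the threshold (limma, adjusted p = 0.0539). Whether its probes detect the transgene is not given in the sources used here. Known Nrf2 targets gave the scale of the response. All 14 measured were higher in every caNrf2 mouse than in any control mouse, and 12 passed the threshold. Their median log2 difference was 1.06, with Nqo1, a quinone reductase, at 3.61 ± 0.13 (SE).

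No gene of cholesterol synthesis or handling passed the test between caNrf2 and control skin. The count was 0 of 30 by limma with Benjamini-Hochberg adjustment over all genes, where 0.374% of 18193 genes passed, and the smallest adjusted p was 0.275. Log2 differences, caNrf2 minus control, ran from -0.20 for Abca1 to 0.31 for Hsd17b7, with a median of 0.02, against -0.01 over all genes. After a further quantile normalisation the median of the 30 genes was -0.01, against -0.02 over all genes. In the mean 17 of the 30 genes were higher, or 56.7%, against 47.2% of all genes. Groups did not overlap for 4 of the 30, against 13.1% of all genes; 3 were higher, against 6.23%, and 1 was lower, against 6.88%. An unadjusted p under 0.05 was reached by 2, Hsd17b7 and Abca1, against 8.09% of all genes. The shares without overlap and with an unadjusted p under 0.05 were thus near the background of the arrays. Each 95% interval is for 1 gene and 1 probe set and is not adjusted for the number of genes. It bounds the difference in RNA of the whole skin, not a difference in the epidermis alone, which is diluted there. All 30 intervals lay within 1.5-fold in either direction, and 16 lay within 1.2-fold. The lowest bound was 0.764 of the control level, for Abca1, and the highest was 1.41-fold, for Hsd17b7.

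**Figure D1:**
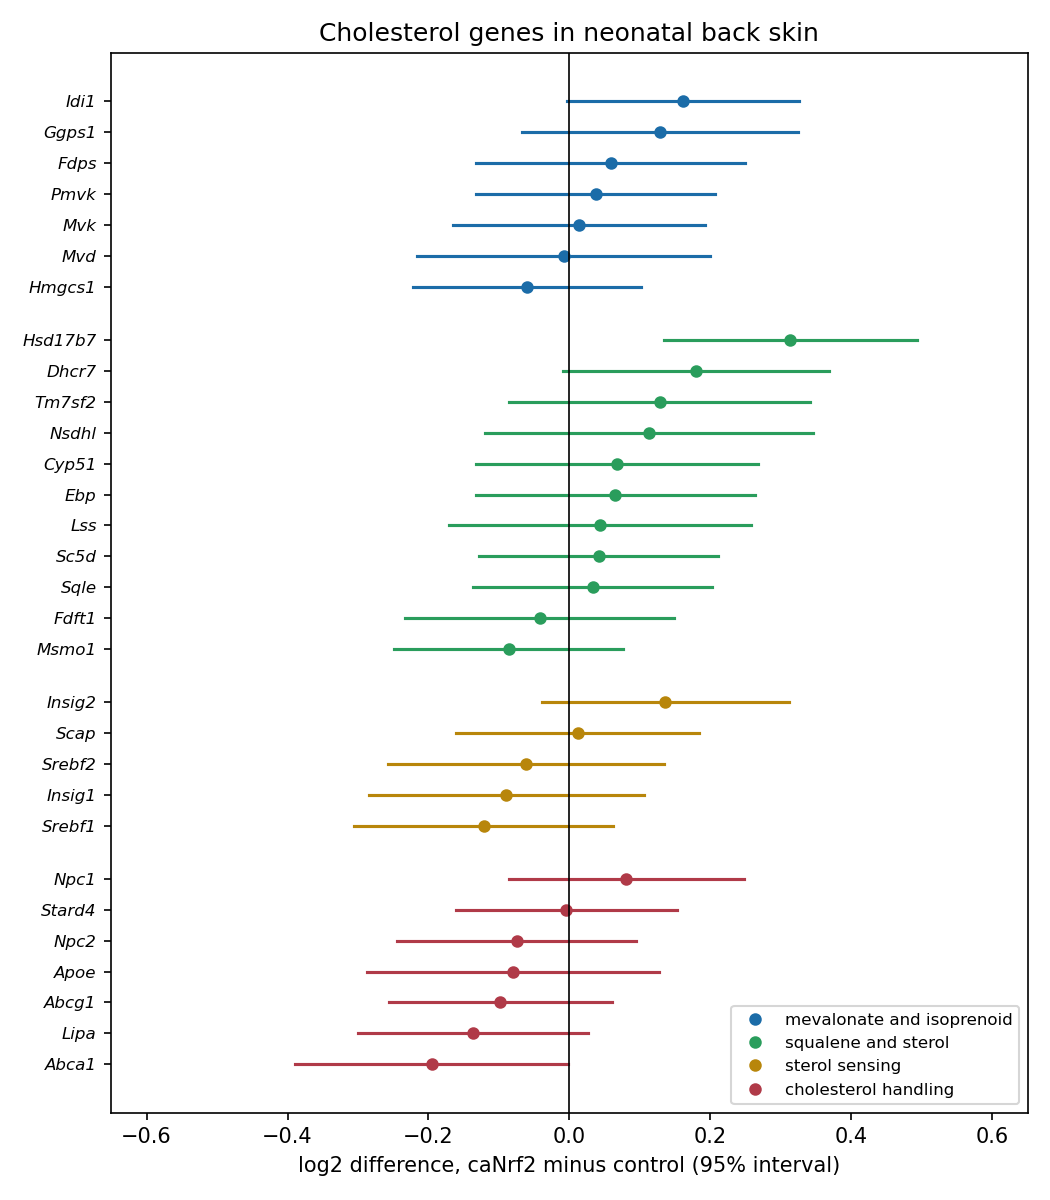
Log2 difference between caNrf2 and control skin (horizontal axis) for the 30 measured cholesterol genes, grouped by role, with the 95% interval from limma (n = 3 arrays per group). The intervals of Hsd17b7 and Abca1 alone leave out 0, before adjustment for 18193 genes.

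No mevalonate or isoprenoid enzyme passed the test. Of 7 measured, 5 were higher and 2 lower in the mean, between -0.06 and 0.16, with a median of 0.04. This turned to 3 higher and 4 lower without control mouse 2 (median -0.0037) or caNrf2 mouse 2 (median -0.023). Hmgcs1, which makes HMG-CoA and is a classical SREBP2 target, measured 5691, 5506 and 5733 intensity units in control mice 1 to 3 and 5770, 5163 and 5327 in caNrf2 mice 1 to 3. Both the highest and the lowest value came from caNrf2 skin, so the groups overlapped, and the log2 difference was -0.06 ± 0.07 (SE, adjusted p = 0.885). Its probe set is of a kind that can also bind related transcripts, and 4 further Hmgcs1 probe sets differed by -0.06, -0.01, 0.03 and 0.08. Idi1 isomerises isopentenyl diphosphate, the building block of all isoprenoids. It measured 1668, 1683 and 1846 in control and 2014, 1910 and 1884 in caNrf2 skin. Every caNrf2 value lay above every control value, by a narrow gap, but the difference of 0.16 ± 0.07 did not pass (adjusted p = 0.625). The dimmer of its probe sets differed by 0.11, with overlap. Ggps1, which makes geranylgeranyl diphosphate for protein prenylation, measured 320.1, 382.3 and 375.3 in control and 381.7, 376.4 and 418 in caNrf2 skin. Control mouse 1 was the lowest and caNrf2 mouse 3 the highest, the other 4 values lay together, and the difference was 0.13 ± 0.09 (adjusted p = 0.761). The kinases Mvk and Pmvk, the decarboxylase Mvd and the farnesyl diphosphate synthase Fdps differed by 0.01, 0.04, -0.01 and 0.06, all with overlap.

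The enzymes from squalene to cholesterol held the largest difference of the 30 genes. Of 11 measured, 9 were higher and 2 lower in the mean, between -0.09 and 0.31, with a median of 0.07. Without control mouse 2 these became 6 higher and 5 lower, with a median of 0.0062. Hsd17b7, a keto reductase of the demethylation at carbon 4 of the sterol ring, measured 845.4, 839.2 and 868.2 in control and 1042, 1163 and 975.2 in caNrf2 skin. The control mice were nearly equal and every caNrf2 mouse was above them. The difference was 0.31 ± 0.08 (SE), a 1.24-fold level with a 95% interval of 1.10 to 1.41, and it missed the threshold (limma, adjusted p = 0.275). Its probe set can also bind related transcripts. Of 3 others, 1 differed by 0.33 without overlap, a dimmer one by 0.15 with overlap and 1 below the median level of the arrays by -0.12.

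Dhcr7 catalyses the last step to cholesterol in one branch of the pathway. Its probe set measured 838.8, 828.4 and 779.8 in control and 851.5, 1028 and 899.2 in caNrf2 skin. Mouse 1 of the caNrf2 group was barely above the highest control, and the difference was 0.18 ± 0.09 (adjusted p = 0.642). Sqle, the squalene epoxidase and a rate-limiting step after HMG-CoA reduction, measured 2026, 1771 and 1977 in control and 2016, 1947 and 1936 in caNrf2 skin. The caNrf2 values lay inside the control range, with a difference of 0.03 ± 0.08 and a 95% interval of 0.910 to 1.15-fold. The squalene synthase Fdft1 differed by -0.04, the lanosterol synthase Lss by 0.04 and the lanosterol demethylase Cyp51 by 0.07. Signs of Fdft1 and Lss turned with the probe set: a nearly as bright Fdft1 probe set differed by 0.01 and a dimmer Lss probe set by -0.07. Among the enzymes that reshape the ring, the reductase Tm7sf2 differed by 0.13, the dehydrogenase Nsdhl by 0.11, the isomerase Ebp by 0.07, the desaturase Sc5d by 0.04 and the methyl oxidase Msmo1 by -0.09. The groups overlapped for each of these 8 genes.

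The sterol sensor showed no common direction. Srebf2, which encodes SREBP2, measured 930.6, 937.1 and 952.7 in control and 792.9, 937.2 and 983.6 in caNrf2 skin. Only caNrf2 mouse 1 was low, and the difference of -0.06 ± 0.09 (adjusted p = 0.905) became 0.03 without that mouse. Its second probe set differed by 0.04. Srebf1, whose product favours fatty acid genes, measured 2148, 1863 and 2078 in control and 1740, 1969 and 1884 in caNrf2 skin. Control mouse 2 lay among the caNrf2 values, and the difference was -0.12 ± 0.08 (adjusted p = 0.758). Insig1, a sensitive SREBP target as well as a brake on it, measured 539.9, 439.8 and 518.2 in control and 461.7, 482.7 and 458.3 in caNrf2 skin. Control mouse 2 was the lowest of all 6, so the groups overlapped (-0.09 ± 0.09, adjusted p = 0.851). Insig2, its paralogue, measured 1393, 1507 and 1469 in control and 1594, 1726 and 1488 in caNrf2 skin. Only caNrf2 mouse 3 fell inside the control range, and the difference was 0.14 ± 0.08 (adjusted p = 0.709). Its 2 other probe sets differed by 0.17 and 0.19, the latter without overlap. Scap, the escort of SREBP, differed by 0.01.

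Genes of cholesterol handling were mostly lower in the mean, though none passed the test. Of 7 measured, 6 were lower and 1 higher, between -0.20 and 0.08, with a median of -0.08, while 9611 of all 18193 genes were lower. The split became 5 lower and 2 higher under median centring, with probe sets averaged and with array weights. It did so too without control mouse 3 or any single caNrf2 mouse. Abca1, the pump that loads cholesterol onto apolipoproteins, measured 1501, 1546 and 1490 in control and 1497, 1226 and 1255 in caNrf2 skin. Mice 2 and 3 of the caNrf2 group were low and mouse 1 was at the control level, so the groups overlapped. The difference was -0.20 ± 0.09, or 0.873 of the control level (limma, adjusted p = 0.613). It was -0.29 without caNrf2 mouse 1 (adjusted p = 0.122) and -0.09 when its 3 probe sets were averaged. Abcg1, the partner pump, measured 314.7, 325.4 and 293.4 in control and 286.6, 291.8 and 292.8 in caNrf2 skin. All caNrf2 values were below all control values, yet control mouse 3 was above the nearest by less than 1 unit, and the difference was -0.10 ± 0.07 (adjusted p = 0.782). Its second probe set was below the median level of the arrays and differed by 0.00.

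Lipa, the lysosomal acid lipase that frees cholesterol from its esters, measured 406.8, 419.7 and 386.8 in control and 352.5, 388.3 and 362.7 in caNrf2 skin. The groups crossed at caNrf2 mouse 2 and control mouse 3, and the difference was -0.14 ± 0.07 (adjusted p = 0.689). A second Lipa probe set differed in the opposite direction, by 0.12, and another, below the median level of the arrays, by -0.08. Apoe, the lipoprotein component made by many skin cells, measured 7686, 7347 and 7766 in control and 7406, 8000 and 6269 in caNrf2 skin. Mice 2 and 3 of the caNrf2 group held the highest and the lowest value, and the difference of -0.08 ± 0.09 (adjusted p = 0.881) became 0.02 without mouse 3. The lysosomal exporters Npc1 and Npc2 differed by 0.08 and -0.07, and the sterol carrier Stard4 by 0.00. The dimmer Stard4 probe sets differed by 0.12 and 0.03, with overlap.

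Macrophages and adipocytes handle much cholesterol, so their markers are given beside this group. Of 9 macrophage markers 5 were higher and none passed, with a median of 0.03. Their summed level was 5278 to 5741 intensity units in control and 5093 to 5843 in caNrf2 skin, and the dimmest in control skin, Cd163, stood at 7.59 (log2). All 7 adipocyte markers were lower, with a median of -0.10, and none passed, the smallest adjusted p being 0.0666 (limma). Pck1 differed most, by -0.55 without overlap, and a dimmer Pck1 probe set by -0.51, also without overlap. The summed level of the 7 markers was 28135 to 31657 in control and 28009.6 to 28675 in caNrf2 skin, and Lep, the hormone leptin, was the dimmest at 5.39 (log2). The part of either cell type in the lower handling genes was not tested.

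**Figure D2:**
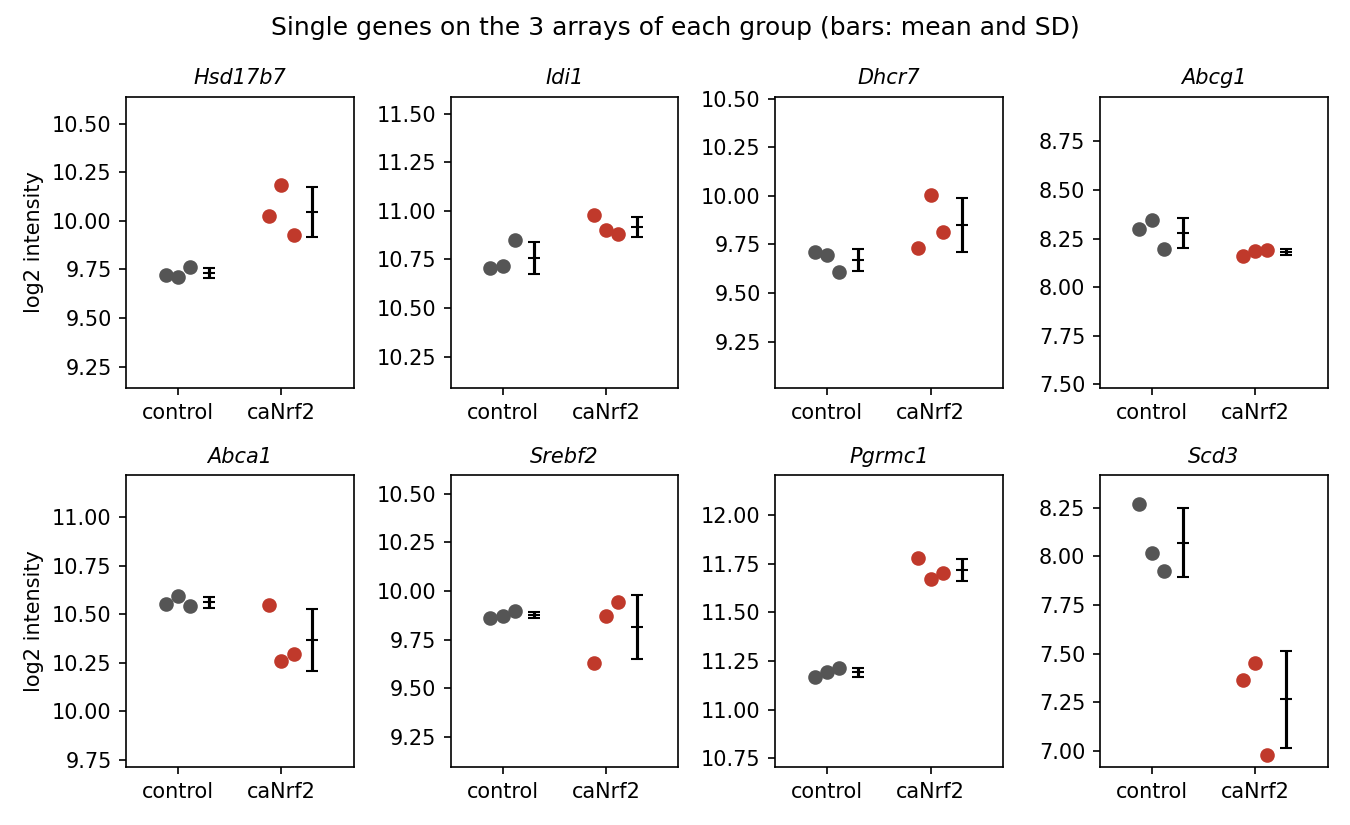
Log2 intensity (vertical axis, 1.5 units in every panel) of 8 genes on the 3 arrays of each group, with mean and SD beside the points. Hsd17b7 and Pgrmc1 lie higher and Scd3 lower in all 3 caNrf2 mice, and only the last 2 passed the test over all genes; Abca1 and Srebf2 each have 1 caNrf2 mouse apart from the others.

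Much of the spread of the sterol enzymes lay between mice of the same group. Control mouse 2 had the lowest of the 3 control values for 9 of the 11 enzymes from squalene to cholesterol and the highest for none, whereas it was lowest for 31.8% of all genes. This pattern was singled out after the values were seen, and it has no test. Relative to the mean of the control mice, the median of these 11 genes was 0.08, -0.11 and 0.01 in control mice 1 to 3 and 0.02, 0.08 and 0.01 in caNrf2 mice 1 to 3. The distance between the control mice was therefore wider than the median difference of 0.07 between the groups. Nsdhl went furthest, at 861 in control mouse 2 against 1066 and 1074 in the others. In caNrf2 skin mouse 2 was highest for 7 of the 11 and above the control mean for all 11, and it was highest for 38.5% of all genes.

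The low values of control mouse 2 were not limited to these enzymes. It was lowest for 10 of 16 fatty acid genes under SREBP1 and 7 of 11 other genes of sterol synthesis and sensing. It was also lowest for 7 of 14 Nrf2 targets, 3 of 7 mevalonate and isoprenoid enzymes and 2 of 5 sensor genes. Near or below the 31.8% of all genes were isoprenoid users (4 of 12), uptake, storage and export (7 of 23) and handling (1 of 7). The high values of caNrf2 mouse 2 extended to 11 of 14 Nrf2 targets, 8 of 12 isoprenoid users and 4 of 5 sensor genes. That mouse was also highest for 14 of 23 genes of uptake, storage and export and 8 of 16 fatty acid genes. The counts were 4 of 7 for mevalonate and isoprenoid enzymes and 4 of 7 for handling genes. For other genes of sterol synthesis and sensing the count was 4 of 11, against 38.5% of all genes. Mouse 2 was also the control mouse with the lowest summed macrophage markers, 5278 against 5698 and 5741, and adipocyte markers, 28135 against 30697 and 31657. It was lowest as well for the summed markers of basal keratinocytes (38461.5 against 38886 and 39350), skeletal muscle (60786 against 62382 and 63249) and Schwann cells (3936 against 4054 and 4260), and not for those of suprabasal keratinocytes, sebocytes, fibroblasts or endothelium. A sum rests mostly on its brightest markers. By the median marker relative to the control mean, control mouse 2 was instead the highest for basal keratinocytes, at 0.03 against -0.02 and 0.01. For Schwann cells control mouse 3 was the lowest, at -0.06 against 0.01 in control mouse 2. Control mouse 2 was the lowest by median for sebocytes, at -0.06, and narrowly for endothelium, at -0.0174 against -0.0170 in control mouse 3. The part of these cell types in this spread was not tested. Without control mouse 2 the median difference over all 30 genes was -0.02 in place of 0.02, and again no gene of the 30 passed.

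**Figure D3:**
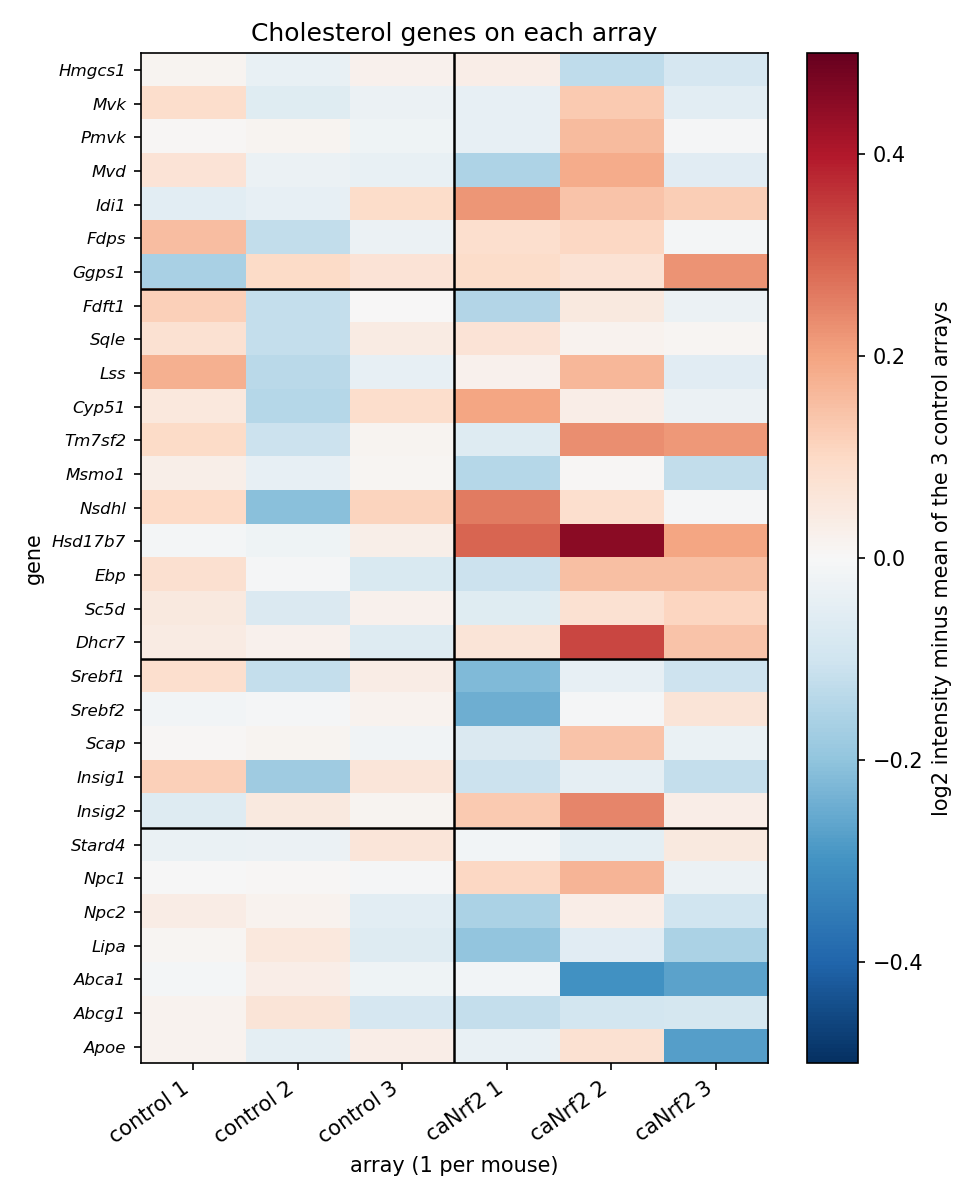
Log2 intensity of 30 cholesterol genes (rows, by role from top to bottom: mevalonate and isoprenoid, squalene and sterol, sensing, handling) on each array (columns), relative to the mean of the 3 control arrays. Control 2 is below that mean for 10 of the 11 squalene and sterol genes, caNrf2 2 is above it for all 11, and Hsd17b7 reaches the darkest red in the same mouse.

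Among 63 other measured genes of the pathway, 2 passed the test, 1 higher and 1 lower, where 0.374% of all genes passed. The 2 became 3 under 5 alternatives, which added Lrp8, and 0 without control mouse 1 or 2. Pgrmc1, a haem-binding membrane protein that binds and activates the sterol demethylase CYP51, measured 2302, 2342 and 2377 in control and 3513, 3261 and 3339 in caNrf2 skin. The gap between the groups was far wider than either group, and Pgrmc1 rose 1.44-fold (95% interval 1.30 to 1.60; log2 0.53 ± 0.07, adjusted p = 0.00703, limma). The call was lost without control mouse 1 or 2, at adjusted p = 0.0664 and 0.0566, with the difference at 0.51 and 0.53. Cyp51 itself, as given above, differed by 0.07. Of the other 10 genes of sterol synthesis and sensing none passed, and the median of all 11 was 0.07. After Pgrmc1 the smallest p belonged to Cyb5a, the electron donor cytochrome b5, at 0.11, Erlin2 at 0.09 and Tmem97 at 0.09, and the other 7 lay between -0.06 and 0.09.

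None of 23 genes of uptake, storage and export passed. Lrp8, a lipoprotein receptor of the low-density receptor family, came nearest. It measured 84.2, 89.9 and 94.3 in control and 115.6, 137.1 and 121.5 in caNrf2 skin, without overlap, and differed by 0.48 ± 0.09 (adjusted p = 0.0529). It passed under 6 of 15 other ways of processing. In the fit of all probe sets a dimmer Lrp8 probe set passed (0.64, adjusted p = 0.0451), and the dimmest differed by -0.04. Apoc1, a small apolipoprotein encoded next to Apoe, measured 1548, 1525 and 1537 in control and 1291, 1353 and 1358 in caNrf2 skin. It was lower in every caNrf2 mouse by a difference of -0.20 ± 0.07, which missed the threshold (adjusted p = 0.439). Nceh1, a cholesterol ester hydrolase, differed by 0.34 ± 0.09 (adjusted p = 0.306), and Gramd1c, a sterol transfer protein, by 0.21 ± 0.08 (adjusted p = 0.533). The cholesterol sulphotransferase Sult2b1 differed by 0.07, and 12 isoprenoid users, such as the prenyl transferases, lay between -0.06 and 0.09.

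Among 16 fatty acid genes that SREBP1 controls, the desaturase Scd3 fell. Its values were 308.1, 259.4 and 242.9 in control and 164.7, 174.8 and 126.2 in caNrf2 skin, or 0.572 of the control level (95% interval 0.469 to 0.697; -0.81 ± 0.13, adjusted p = 0.0294, limma). The call depended on single arrays, since it held without control 3 or caNrf2 3 and was lost without any of the other 4, where the difference was -0.71 to -0.90 and adjusted p reached 0.154. It was also lost when probe sets were averaged (-0.76, adjusted p = 0.0550). Scd3 is known from sebaceous glands. Of 8 sebocyte markers 6 were lower and none passed, with a median of -0.11 and a summed level of 10195 to 10350.3 in control and 8846 to 10413 in caNrf2 skin, and the dimmest was Mogat1 at 4.04 (log2). The largest difference among these markers went the other way, with Acox2 higher by 0.65 without overlap. Elovl3 and Mogat1 differed by -0.37 and -0.22, also without overlap. Of the 8 markers, 25% were thus lower without overlap and 12.5% higher, against 6.88% and 6.23% of all genes. The part of sebocytes in the fall of Scd3 was not tested. The rest of the list did not pass, with Acss2, which makes acetyl-CoA from acetate, at 0.24 ± 0.10 and the desaturases Fads1 at 0.17 ± 0.08 and Fads2 at 0.18 ± 0.09. On the lower side, and named after their values were seen, Elovl6 differed by -0.22 ± 0.11, Scd1 by -0.16 ± 0.10 and the fatty acid synthase Fasn by -0.15 ± 0.10. Dimmer probe sets differed by -0.24 for Scd1 and by -0.12 and 0.00 for Elovl6. The median of the 16 was 0.02.

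**Figure D4:**
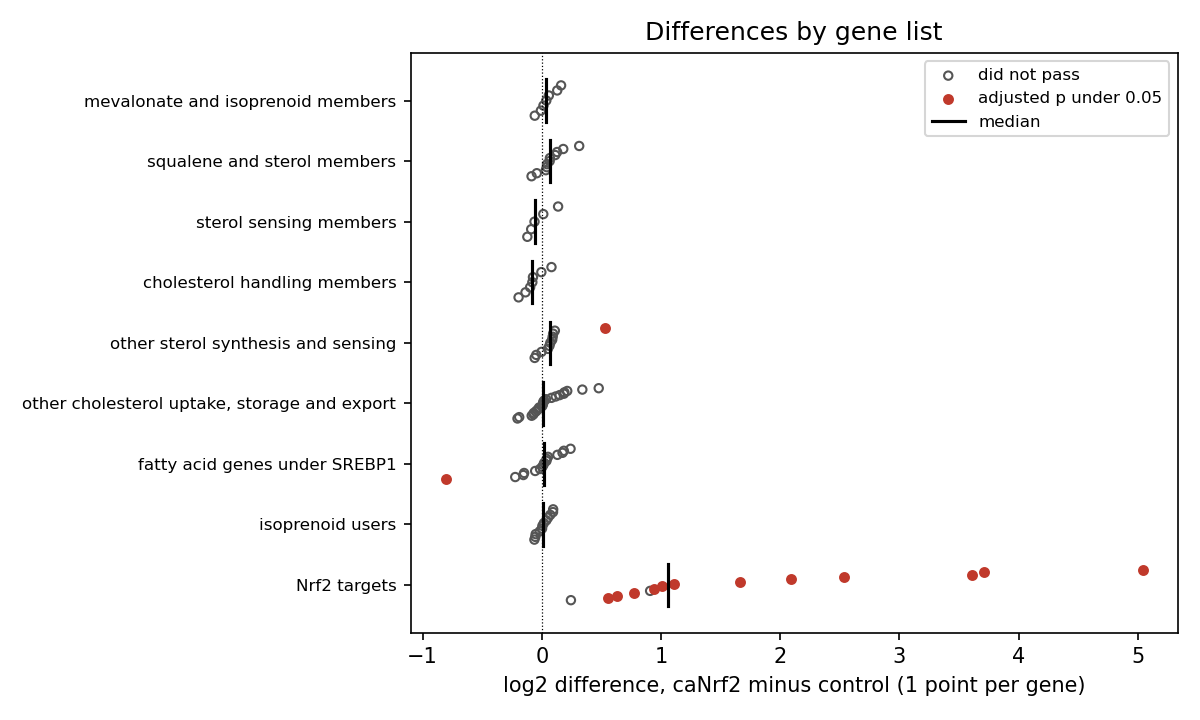
Log2 difference between caNrf2 and control skin (horizontal axis, 1 point per gene) in the 4 role groups of cholesterol genes and in 5 further lists, with the median as a black line and genes past the threshold filled. The cholesterol groups stay between -0.20 and 0.31, while 12 of 14 Nrf2 targets passed and the median of those 14 was 1.06.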

How the data were processed

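Gene expression was measured with mouse 3-prime arrays in 6 skin samples, 3 per group, from 2 µg of RNA each. The values deposited by the authors are linear intensities, made with RMA (background subtraction, quantile normalisation, summary of probes) per the submitters' processing notes. The sources used here give neither its version nor filters. RMA compresses folds near background and hides shifts shared by most genes. Columns of other series numbered 0.

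Of 45101 probe sets, 64 array controls were left out. The platform annotation gave 1 symbol for 34945, several for 932 and none for 9160. Intensities were taken to log2 and tested by limma 3.58.1 (R 4.3.3; lmFit and eBayes with no trend or covariate; residual degrees of freedom, 4). P-values were adjusted by Benjamini-Hochberg over 18193 genes, and 0.05 was the threshold. Each array is a separate animal, and their number limits the precision. SE and 95% intervals are from this fit. The genes and lists were chosen with earlier results of these data known, so counts and medians are descriptions beside those of all genes. Values of every array are given for those of the 30 genes without overlap or with an unadjusted p under 0.05, the 2 largest differences per role, and Srebf2, Insig1, Hmgcs1, Sqle, Abca1 and Apoe; from each other pathway list, genes that passed and up to 4 with the smallest p are named. Further marker lists (fibroblast, endothelium, skeletal muscle, Schwann cell) held no gene that passed, with medians of 0.00, -0.08, 0.01 and -0.04; basal and suprabasal keratinocyte markers held none either, with 0.05 and 0.04. The fit was tested on simulated arrays. The 15 alternatives changed the scaling (median centring, quantiles again), the pseudocount (16), the filter (median level), the probe sets (averaged per gene), the variance model (trend, robust, array weights), the block (replicate number) or the arrays (each of 6 left out).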

Additional observations from a re-analysis of the deposited data

How the results depend on the processing

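No gene of the 30 passed under any of the 15 alternatives, and the smallest adjusted p of any was 0.122, for Abca1 without caNrf2 array 1. The median over the 30 genes stayed between -0.02 and 0.04. By role it ran from 0.0062 (without control array 2) to 0.11 for the enzymes from squalene to cholesterol, from -0.13 to -0.047 for the handling genes, from -0.023 to 0.064 for the mevalonate and isoprenoid enzymes and from -0.095 to 0.030 (without caNrf2 array 1) for the sensor genes. Of the 14 cholesterol genes given with every array, 11 kept their sign throughout; Sqle turned to -0.0024 after quantile normalisation. Leaving out single arrays gave -0.026 (without control array 2) to 0.071 for Sqle, -0.125 to 0.030 (without caNrf2 array 1) for Srebf2 and -0.157 to 0.019 (without caNrf2 array 3) for Apoe. The cause was not tested. Genes that passed over all genes numbered 68, and 41 to 94 over the alternatives; leaving out 1 array gave 41 to 89, with 41, 43 and 45 without control arrays 1 to 3. In the other pathway lists 2 passed, 3 under median centring, quantile normalisation, the filter, the robust fit or array weights, 1 when probe sets were averaged per gene, and 0 to 2 when single arrays were left out, with 0 without control array 1 or 2 and 1 without caNrf2 array 2. Nrf2 targets that passed numbered 11 to 13. Same-numbered arrays correlated at -0.20, -0.03 and 0.04 in their deviations from the group means, and arrays of unlike number at -0.16 to 0.19. The replicate numbers thus showed no sign of pairing. Deviations within a group of 3 sum to 0, so these values cannot settle whether the animals were paired. With the replicate block the smallest adjusted p among the 30 was 0.400, the median was 0.02, and 61 genes passed over all genes, 2 of them in the other pathway lists. With 3 arrays per group, differences under about the width of the intervals were not detectable. Some larger ones did not pass either, because the intervals are not adjusted for the number of genes. Lrp8 differed by 0.48 (interval 0.29 to 0.67) and Nfe2l2 by 0.41 (interval 0.25 to 0.58), and neither passed in the main fit.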
